A study of Mus musculus with 7 samples.

Results

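The 10 genes described here are Fos, Fosb, Jun, Junb, Atf3, Egr1, Ier2, Dusp1, Hspa1a and Hspa1b, rapid-response genes chosen by symbol out of 35498 genes quantified. They were measured by strand-specific mRNA sequencing of bone marrow from female mice of 5 to 6 months. The groups were Aim2 knock out (KO, 3 libraries) and wild type (WT, 4 libraries), and no treatment is given for either. The labels call the KO mice AIM2 null and do not give the deleted part of the gene, the strain, or whether any libraries share a mouse. The p-values therefore describe only the spread between these libraries, which may be technical. Of the 10 genes, 9 had enough reads to be tested, among 14238 genes tested in all, and Fosb did not.

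Immediate early genes are transcribed within minutes of a signal, from factors that are already present in the cell, and their RNAs are short-lived. Fos and Jun family proteins pair through leucine zippers to form AP-1, Egr1 is a zinc finger factor, and Dusp1 is a phosphatase that switches MAP kinases off again. Hspa1a and Hspa1b encode the inducible HSP70 chaperone and are driven by the heat shock factor HSF1. In marrow the AP-1 and Egr factors are known for roles in myeloid differentiation, and the whole set is also known to respond to stress of the cells.

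Aim2, a sensor of DNA in the cytosol, was at 2.26 to 7.37 CPM in the KO libraries and 25.5 to 32.2 CPM in the WT libraries, where CPM is the read count scaled to the TMM-adjusted library size. Libraries held 20300468 to 21099972 estimated reads. The share of haemoglobin reads was 11.3 to 13.7% in KO and 13.8 to 19.9% in WT, and WT library 1 held the most. Skeletal muscle markers (7 genes) varied widely between libraries, from 55.4 to 5517 summed CPM in KO and from 948 to 1934 in WT. In bulk marrow, fewer cells of a type and less RNA per cell cannot be told apart. Defining marrow markers were present throughout: none of the neutrophil, monocyte, B lineage or erythroid markers was at 0 in any library.

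The promoters of 4 of the genes are shown because they form the closest pairs of values over the libraries described further on, Fos with Junb and Hspa1a with Hspa1b. Each is the 250 bases before the start in RefSeq on GRCm38.p6, printed 5′ to 3′ on the strand of the gene. Capitals mark matches on either strand to the cyclic AMP response half-site TGACGT, the TATA box TATAAA, the CCAAT box CCAAT and a pair of heat shock units GAANNTTC. Fos stands at chr12:85473640-85473889 (plus strand), Junb at chr8:84978749-84978998 (minus), Hspa1a at chr17:34972157-34972406 (minus) and Hspa1b at chr17:34959239-34959488 (minus).
Fos: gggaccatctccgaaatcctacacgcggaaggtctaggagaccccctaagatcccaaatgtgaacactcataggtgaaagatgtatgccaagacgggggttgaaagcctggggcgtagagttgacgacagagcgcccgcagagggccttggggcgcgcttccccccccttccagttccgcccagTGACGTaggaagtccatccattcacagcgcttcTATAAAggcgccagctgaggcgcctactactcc
Junb: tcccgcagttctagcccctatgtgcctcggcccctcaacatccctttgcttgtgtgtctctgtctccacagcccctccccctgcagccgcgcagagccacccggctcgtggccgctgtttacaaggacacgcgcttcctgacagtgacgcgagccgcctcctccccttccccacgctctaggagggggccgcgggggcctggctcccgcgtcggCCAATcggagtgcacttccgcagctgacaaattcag
Hspa1a: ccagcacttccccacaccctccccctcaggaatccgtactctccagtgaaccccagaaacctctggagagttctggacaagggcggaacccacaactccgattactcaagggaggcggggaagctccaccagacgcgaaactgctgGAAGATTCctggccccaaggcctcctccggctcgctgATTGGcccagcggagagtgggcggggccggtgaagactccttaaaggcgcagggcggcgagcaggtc
Hspa1b: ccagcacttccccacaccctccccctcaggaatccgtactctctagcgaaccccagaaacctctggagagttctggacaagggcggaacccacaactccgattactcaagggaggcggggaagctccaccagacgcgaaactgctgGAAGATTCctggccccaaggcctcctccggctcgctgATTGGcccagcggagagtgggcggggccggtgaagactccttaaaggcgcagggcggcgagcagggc

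The Hspa1a and Hspa1b windows were identical at 247 of 250 bases. Counted from 1 at the 5′ end, the differences from Hspa1a to Hspa1b were C44T, T47C and T249G. Both hold the heat shock pair at 104 to 97 bases before the start, and none of the 3 differences lies in it. Among the 8 of 10 genes with a promoter in the table (Egr1 and Ier2 had none there), the heat shock pair GAANNTTC was in 3, Hspa1a, Hspa1b and Jun, against 6.69% of all 32851 promoters of the same length. The half-site TGACGT was in 3, Fos, Atf3 and Dusp1, against 6.47% of all. The CCAAT box was in 4 (33.8% of all) and TATAAA in Fos alone (12.4% of all). Other motifs, searched on both strands and not in capitals, were the AP-1 site TGANTCA (0 of 8, 6.75% of all), the CArG box bound by serum response factor (0 of 8, 1.47% of all), the heat shock pair TTCNNGAA (0 of 8, 7.17% of all), the EGR site GCGNGGGCG (Fosb alone, 4.7% of all) and the GC box GGGCGG (7 of 8, 32.7% of all), the last overlapping the EGR site in Fosb. A match is a description of these letters and not a shown binding site. A count of 0 speaks only for these exact letters within these 250 bases. It does not cover longer forms of a site, sites farther out, or Egr1 and Ier2.

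None of the 9 tested genes passed the test between KO and WT marrow. In the quasi-likelihood test of edgeR, with an adjusted p under 0.05 as the threshold, 0 of 9 were called, where 0.646% of all tested genes were called. DESeq2 and voom with sample weights also called 0 of 9. Before adjustment, p was under 0.05 for 2, Fos (higher) and Atf3 (lower), where 11.5% of all tested genes were under it. The same 2 were the ones whose KO and WT libraries did not overlap in CPM. Among all tested genes 12.9% did not overlap (6.95% with KO higher and 5.94% with KO lower). The log2 fold changes of KO over WT ran from -0.40 to 0.66 with a median of 0.06, beside a median of -0.01 over all tested genes. A p that misses the threshold does not show equal levels, so each gene is given with its 95% interval, which is not adjusted for the number of genes.

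**Figure D1:**
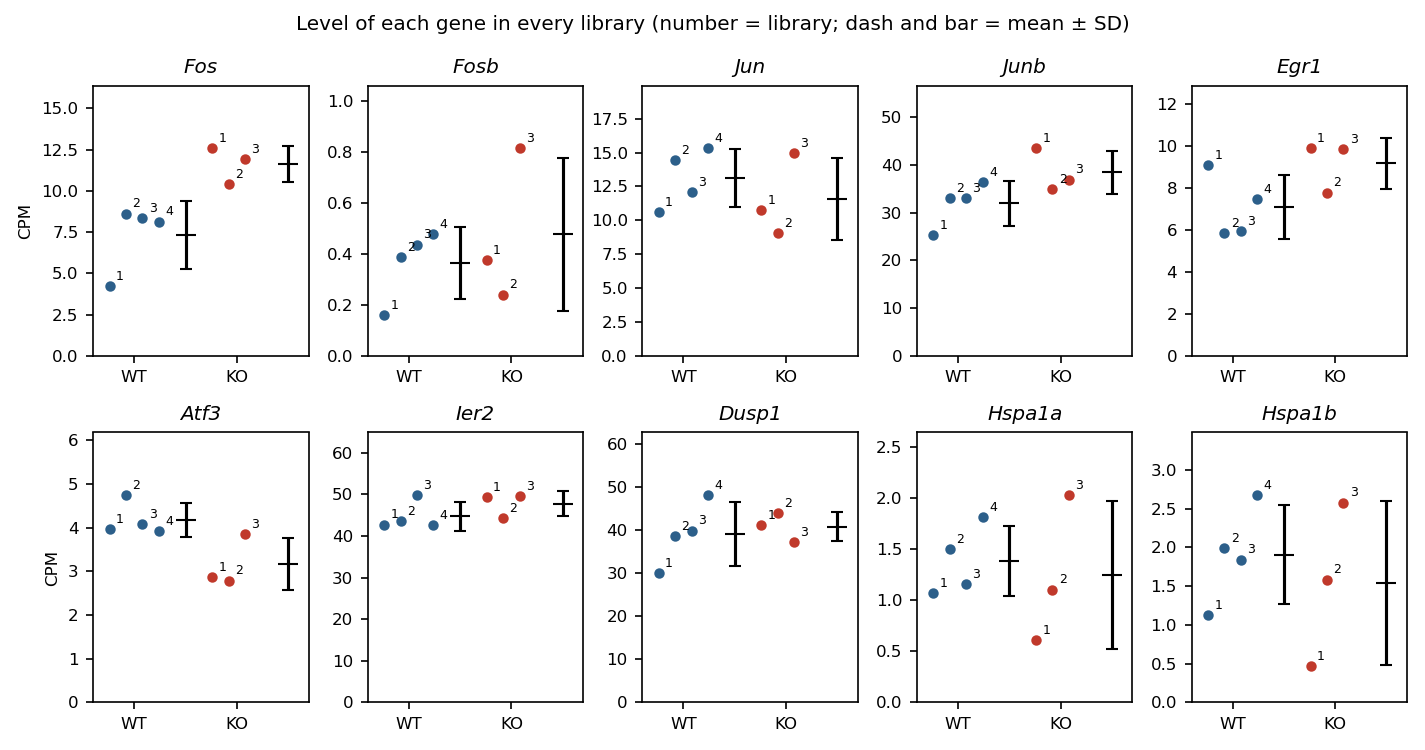
CPM of each of the 10 genes in every library (y axis from 0), WT in blue and KO in red, with the library number beside each point and the mean ± SD as a black dash and bar. The KO points lie above all WT points for Fos and below them for Atf3, and the groups overlap for the other 8 genes.

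Fos, the founding AP-1 subunit (ENSMUSG00000021250.13, chromosome 12, 85473890 to 85477273, plus strand), had the largest difference of the set. It was at 12.6, 10.4 and 11.9 CPM in KO libraries 1 to 3 and at 4.24, 8.63, 8.34 and 8.14 CPM in WT libraries 1 to 4. The groups did not overlap, and WT library 1 stood well under the other WT libraries. The mean of the KO libraries was 11.6 ± 1.10 CPM (SD, n = 3) and that of the WT libraries 7.33 ± 2.08 CPM (SD, n = 4). The log2 fold change was 0.66 ± 0.23 (SE; Benjamini-Hochberg adjusted p = 0.319, quasi-likelihood test of edgeR), a fold of 1.58 with a 95% interval of 1.10 to 2.27. Without WT library 1 the log2 fold change was 0.48. Nearly all reads, 96.9 to 100% in each library, went to the protein-coding transcript Fos-201.

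Junb, an AP-1 partner that is abundant in myeloid cells (chromosome 8, 84974484 to 84978718, minus strand), was at 43.5, 34.98 and 37.0 CPM in KO and at 25.4, 33.1, 33.1 and 36.4 CPM in WT. KO library 1 was the highest and WT library 1 the lowest, and the groups overlapped at KO library 2 and WT library 4. The fold was 1.20 with a 95% interval of 0.977 to 1.48 (log2 fold change 0.27 ± 0.13, SE; adjusted p = 0.492, edgeR). Leaving out KO library 1 or WT library 1 gave 0.17 on the log2 scale. All Junb reads went to Junb-201.

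Jun, the AP-1 subunit that most often pairs with Fos (chromosome 4, 95049034 to 95052222, minus strand), did not follow Fos. It was at 10.7, 9.08 and 14.9 CPM in KO and at 10.6, 14.4, 12.1 and 15.3 CPM in WT. Low and high libraries occurred in both groups. The fold was 0.884 with an interval of 0.652 to 1.20 (log2 fold change -0.18 ± 0.19, SE; adjusted p = 0.784, edgeR). Leaving out KO library 3 gave -0.41 on the log2 scale, leaving out KO library 2 gave -0.03 and leaving out WT library 4 gave -0.09.

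Atf3, a bZIP factor of the ATF family induced by many stresses (chromosome 1, 191170296 to 191218039, minus strand), stood lower in KO. It was at 2.86, 2.79 and 3.85 CPM in KO and at 3.97, 4.75, 4.07 and 3.92 CPM in WT. The groups did not overlap in CPM, by a gap of under 0.1 CPM between KO library 3 and WT library 4. In TPM, the abundance per transcript length, they overlapped, with KO library 3 at 2.19 and WT libraries 1 and 4 at 1.71 and 2.01. The values rest on 58.0 to 98.0 reads per library, all on Atf3-201. The fold was 0.758 with an interval of 0.577 to 0.996 (log2 fold change -0.40 ± 0.17, SE; adjusted p = 0.434, edgeR).

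Fosb, an AP-1 subunit that is induced later and more weakly than Fos outside the nervous system (chromosome 7, 19302696 to 19310051, minus strand), was near the floor. It had 8, 5 and 18 reads in KO and 3, 8, 9 and 10 in WT. The sums were 31 reads in KO (exact Poisson 95% interval 21.1 to 44.0) and 30 in WT (20.2 to 42.8), intervals that cover counting error only. Salmon put all 18 reads of KO library 3 on Fosb-201, all 10 of WT library 4 on Fosb-202 and most others on Fosb-207, which at this depth says little about isoforms. Fitted without the filter on low counts, its log2 fold change was 0.37 (adjusted p = 0.833, edgeR).

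Egr1, a zinc finger factor of myeloid and stem cells (chromosome 18, 34859823 to 34864984, plus strand), was at 9.90, 7.78 and 9.86 CPM in KO and at 9.11, 5.86, 5.96 and 7.47 CPM in WT. WT library 1, the lowest for Fos and Junb, was the highest WT library for Egr1. The fold was 1.29 with an interval of 0.973 to 1.72 (log2 fold change 0.37 ± 0.18, SE; adjusted p = 0.485, edgeR). Its reads were split between Egr1-202, with 68.7 to 86.7% of them in KO and 69.2 to 86.4% in WT, and the longer Egr1-201, so the split did not separate the groups.

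Ier2, a nuclear immediate early protein (chromosome 8, 84661331 to 84662852, minus strand), was the steadiest of the 10. It was at 49.3, 44.3 and 49.7 CPM in KO and at 42.7, 43.7, 49.9 and 42.7 CPM in WT. The SD was 6.34% of the mean in KO and 7.77% in WT. The fold was 1.07 with an interval of 0.939 to 1.21 (adjusted p = 0.722, edgeR), the narrowest interval of the set. The log2 fold change of 0.09 became 0.15 without KO library 2 or without WT library 3, and 0.06 without KO library 3.

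Dusp1, the MAP kinase phosphatase (chromosome 17, 26505590 to 26562128, minus strand), was at 41.2, 44.0 and 37.3 CPM in KO and at 30.0, 38.5, 39.9 and 48.2 CPM in WT. The KO libraries lay inside the range of the WT libraries. The fold was 1.04 with an interval of 0.826 to 1.32 (adjusted p = 0.924, edgeR), and its direction turned without WT library 1 (log2 fold change -0.05). Transcripts that retain an intron took 7.84 to 10.1% of Dusp1 reads in KO and 7.65 to 12.7% in WT, so the groups overlapped in this share as well.

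**Figure D2:**
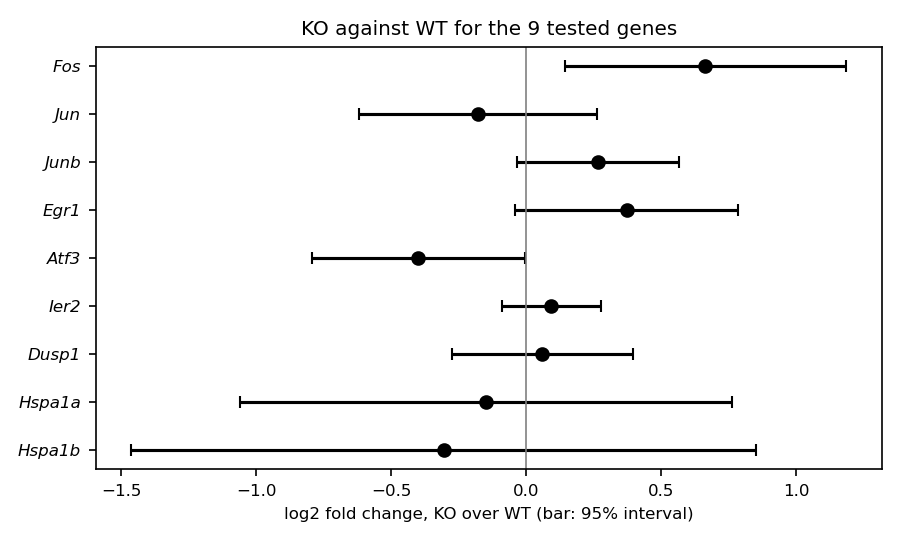
Log2 fold change of KO over WT (x axis) for the 9 tested genes, with 95% intervals as bars. The interval lies above 0 for Fos and just under 0 for Atf3, crosses 0 for the other 7, and is widest for Hspa1b and Hspa1a.

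Hspa1a (chromosome 17, 34969190 to 34972156, minus strand) and Hspa1b (chromosome 17, 34956436 to 34959238, minus strand) are neighbouring copies of the inducible HSP70 gene. Of the 31-base words of Hspa1a-201, 63.8% occur in Hspa1b-201, and 67.5% the other way, so Salmon had to divide many reads between them and the split is uncertain. Hspa1a was at 0.610, 1.10 and 2.04 CPM in KO and at 1.07, 1.502, 1.16 and 1.82 CPM in WT. Hspa1b was at 0.469, 1.59 and 2.58 CPM in KO and at 1.13, 1.99, 1.84 and 2.68 CPM in WT. For both copies KO library 1 was lowest, and KO library 3 and WT library 4 were the highest of all.

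The 2 copies together had 23.0, 56.0 and 102 reads in KO libraries 1 to 3 and 41.0, 72.0, 62.3 and 94.0 reads in WT libraries 1 to 4. Summed, KO libraries averaged 2.80 ± 1.77 CPM (SD, n = 3) and WT libraries 3.30 ± 0.96 CPM (SD, n = 4), and the log2 fold change was -0.24 ± 0.44 (SE; adjusted p = 0.890, edgeR). Singly, the folds were 0.901 for Hspa1a with an interval of 0.479 to 1.69 (adjusted p = 0.932, edgeR) and 0.809 for Hspa1b with an interval of 0.363 to 1.81 (adjusted p = 0.872, edgeR). Without KO library 1 the log2 fold changes turned to 0.18 and 0.12, and without WT library 4 that of Hspa1a was 0.01. The SD within KO was 57.9% of the mean for Hspa1a and 68.3% for Hspa1b, where counting alone would give 19.2% and 17.3%.

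The order of the libraries for both copies was close to their order for skeletal muscle markers. The median of the muscle list, as log2 deviation from its WT mean, was -4.68, -0.97 and 1.98 in KO libraries 1 to 3 and -0.52, 0.27, -0.18 and 0.50 in WT libraries 1 to 4. Over the 7 libraries it had a Pearson r of 0.941 with Hspa1a (exact permutation p = 0.000397, 0.05 after adjustment over 126 relations of 9 genes with 14 marker lists) and a Spearman rho of 0.964 (exact permutation p = 0.00278, adjusted 0.17). With Hspa1b r was 0.934 (exact permutation p = 0.00397, adjusted 0.11) and rho 0.929 (exact permutation p = 0.00675, adjusted 0.17). Without KO libraries 1 and 3, the farthest from the median on the muscle list, r was 0.896 and 0.778. For Jun r was 0.613 (exact permutation p = 0.12, adjusted 0.504) and rho 0.857 (exact permutation p = 0.0238, adjusted 0.25), and for Fos r was -0.209 (exact permutation p = 0.598, adjusted 0.955) and rho -0.214 (exact permutation p = 0.662, adjusted 0.986). None of the 7 muscle markers was at 0 in any library and 0 of 7 were called, with 0 under an unadjusted p of 0.05 and log2 fold changes of 0.22 to 1.11. Muscle was not the only list near both copies. The dendritic cell list had r of 0.863 with Hspa1a (exact permutation p = 0.0147, adjusted 0.168) and rho of 0.893. With Hspa1b its r was 0.855 (exact permutation p = 0.0161, adjusted 0.169) and rho 0.857. Without KO libraries 1 and 3 its r was 0.473 and 0.737. The relation with muscle was picked out after its values were seen, and the part of muscle RNA in the Hspa1a and Hspa1b levels was not tested.

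**Figure D3:**
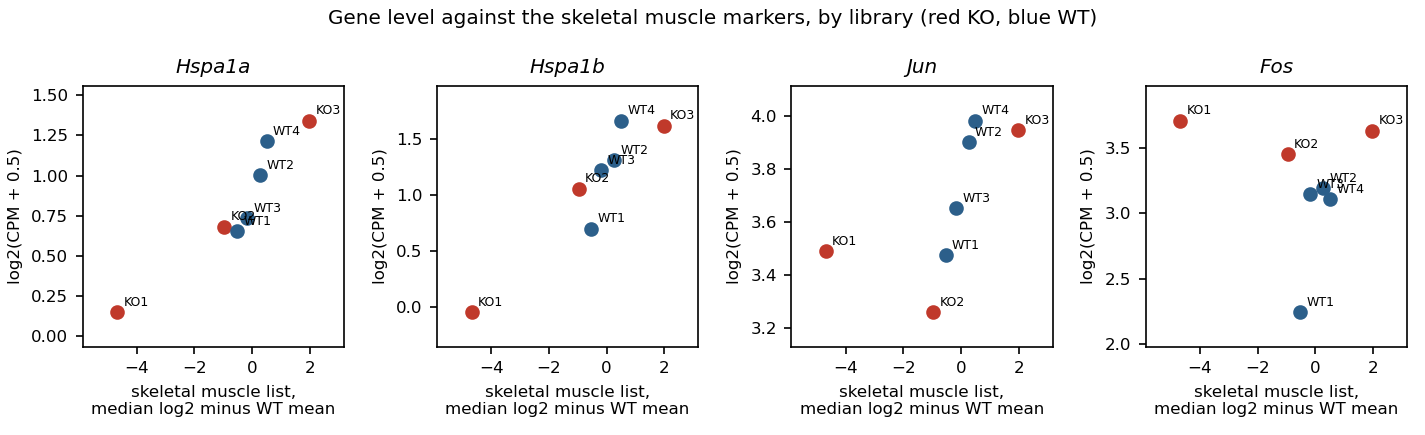
Level of Hspa1a, Hspa1b, Jun and Fos as log2(CPM + 0.5) (y axes) against the median log2 deviation of 7 skeletal muscle markers from their WT mean (x axes), one point per library, KO red and WT blue. KO 1 is lowest on both axes for Hspa1a and Hspa1b and KO 3 is highest on the x axis, whereas Fos is highest in KO 1.

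The small heat shock protein genes Cryab, Hspb8 and Hspb1, which muscle also expresses, had wide ranges over the libraries. Cryab was at 2.39, 20.7 and 82.9 CPM in KO libraries 1 to 3 and at 19.5 to 71.2 CPM in WT. Hspb8 was at 0.282, 2.16 and 14.8 CPM in KO and 2.67 to 7.996 CPM in WT, and Hspb1 at 1.69, 2.11 and 11.6 CPM in KO and 6.25 to 8.58 CPM in WT. Hspb1 passed the test when KO library 3 was left out (log2 fold change -2.04, adjusted p = 0.0124, edgeR) and not with all libraries (-0.60, adjusted p = 0.765). Over the alternatives its adjusted p was 0.0124 to 0.935. These 3 genes were picked with their values in view, so they are no support for the relation with muscle. The part of muscle RNA in their levels was not tested.

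Across the set, libraries did not rank the genes in 1 common order. WT library 1 was lowest for 3 of the 9 tested genes (Fos, Junb and Dusp1), KO library 1 for 2 (Hspa1a and Hspa1b) and KO library 2 for 2 (Jun and Atf3). Of the 36 pairs among the 9 genes, Hspa1a with Hspa1b was the closest (Pearson r = 0.953, exact permutation p = 0.000397, adjusted 0.0143; Spearman rho = 0.964, exact permutation p = 0.00278, adjusted 0.1; n = 7), a pair that shares reads. Without KO libraries 1 and 3 that r was 0.892. Fos with Junb followed (r = 0.927, exact permutation p = 0.00536, adjusted 0.0964; rho = 0.786, exact permutation p = 0.048, adjusted 0.432; n = 7), and without KO library 1 and WT library 1 its r was 0.545, so the relation rests largely on those libraries. The next pair was Jun with Hspa1a (r = 0.776, exact permutation p = 0.0363, adjusted 0.436; rho = 0.821, exact permutation p = 0.0341, adjusted 0.410; n = 7). Fos and Jun themselves went separate ways, with Fos highest in KO library 1, where Jun was below 4 of the other libraries (r = 0.103, exact permutation p = 0.857, adjusted 0.964; rho = -0.0714, exact permutation p = 0.906, adjusted 0.960; n = 7).

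**Figure D4:**
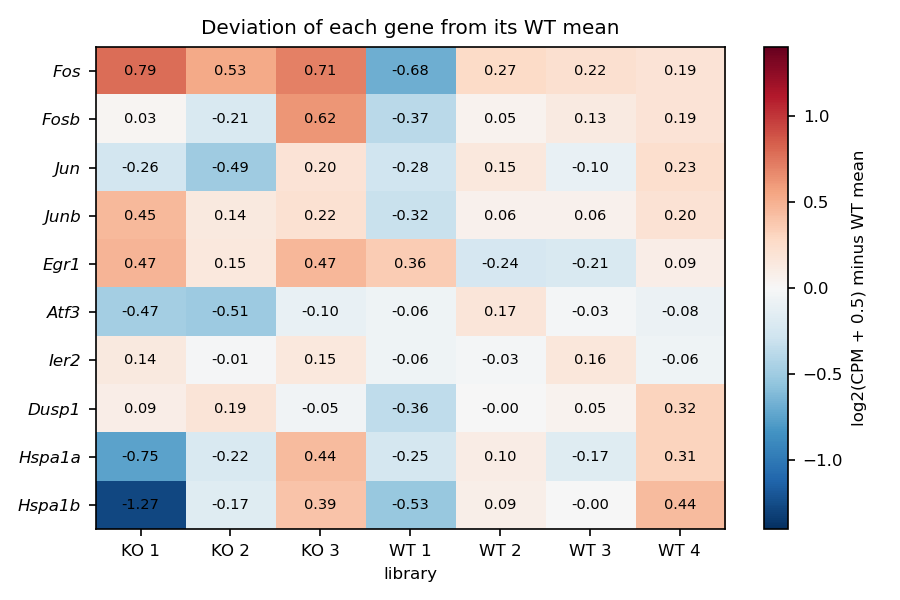
Deviation of each gene (rows) in each library (columns) from its WT mean on the log2(CPM + 0.5) scale, red above and blue below, with the value printed in each cell. Fos and Junb are lowest in WT 1 (-0.68 and -0.32), and Hspa1a and Hspa1b are lowest in KO 1 (-0.75 and -1.27).

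Summed markers of mature neutrophils, monocytes, endothelial cells and plasma cells were also higher on average in KO libraries. The 8 mature neutrophil markers summed to 11328 to 12779 CPM in KO and 9212 to 11125 CPM in WT, with 8 of 8 log2 fold changes above 0 and 0 called (4 at an unadjusted p under 0.05). The 7 monocyte and macrophage markers summed to 1107 to 1261 CPM in KO and 836 to 1202 CPM in WT, with WT library 1 lowest, and the 5 endothelial markers to 167 to 178 CPM in KO and 140 to 152 CPM in WT. In these lists 0 of 7 and 0 of 5 were called, and 2 and 3 were under an unadjusted p of 0.05, where 11.5% of all tested genes were. Log2 fold changes were above 0 for 6 of 7 and 4 of 5, where 47.3% of all tested genes were above 0. None of these markers was at 0 in any library. The 5 plasma cell markers summed to 685 to 851 CPM in KO and 426 to 648 CPM in WT, with 5 of 5 log2 fold changes above 0, 0 called and 4 under an unadjusted p of 0.05. Other lists also leaned above 0, with 5 of 5 neutrophil precursor, megakaryocyte, and mast, basophil and eosinophil markers. So did 7 of 7 muscle, 4 of 5 stromal and 3 of 4 dendritic markers. Under 0 were 7 of 7 B lineage, 6 of 6 erythroid, 5 of 5 osteoblast and 4 of 6 T and NK markers.

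Over the 7 libraries Fos ran close to these lists and to some others, among the same 126 relations. With monocyte markers r was 0.953 (exact permutation p = 0.00675, adjusted 0.142) and rho 0.857 (exact permutation p = 0.0238, adjusted 0.25), and r was 0.724 without KO library 3 and WT library 1. With endothelial markers r was 0.940 (exact permutation p = 0.00179, adjusted 0.11) and rho 0.929 (exact permutation p = 0.00675, adjusted 0.17), and r was 0.928 without KO libraries 1 and 3. With mature neutrophil markers r was 0.914 (exact permutation p = 0.00437, adjusted 0.11) and rho 0.857 (exact permutation p = 0.0238, adjusted 0.25), and r was 0.787 without KO library 1 and WT library 1. With plasma cell markers r was 0.851 (exact permutation p = 0.0133, adjusted 0.168) and rho 0.786 (exact permutation p = 0.048, adjusted 0.356), and r was 0.667 without WT libraries 1 and 2. Stromal markers gave r of 0.878 (exact permutation p = 0.0246, adjusted 0.221) and rho of 0.643, and r was 0.924 without WT libraries 1 and 3. Neutrophil precursor markers gave r of 0.801 (exact permutation p = 0.0496, adjusted 0.391), and -0.161 without KO library 3 and WT library 1. B lineage markers ran the other way, with r of -0.633 and rho of -0.821 (exact permutation p = 0.113 and 0.0341, adjusted 0.504 and 0.307). For Junb, r with the neutrophil list was 0.865 (exact permutation p = 0.00377, adjusted 0.11) and rho 0.929 (exact permutation p = 0.00675, adjusted 0.17), and r was 0.684 without KO library 1 and WT library 1. Its r was 0.867 with monocyte markers (exact permutation p = 0.0185, adjusted 0.179), and 0.572 without KO library 3 and WT library 1. Endothelial markers gave 0.843 (exact permutation p = 0.0129, adjusted 0.168), and 0.825 without KO libraries 1 and 3. Stromal markers gave 0.816 (exact permutation p = 0.0456, adjusted 0.383). None of these relations passed the adjustment. All correlations and permutations over the 7 libraries mixed KO and WT libraries. They therefore do not separate a shared difference between the groups from a relation within the groups. The part of these cell types in the Fos and Junb values was not tested.

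By abundance per transcript length, the genes fell into a high, a middle and a low tier. In TPM over all 7 libraries, Ier2 was at 35.02 ± 5.05 (SD, n = 7), Dusp1 at 22.6 ± 4.19 and Junb at 22.4 ± 4.73. Fos was at 4.77 ± 1.79, Jun at 4.10 ± 0.96, Egr1 at 2.48 ± 0.66 and Atf3 at 1.95 ± 0.38. Hspa1b was at 0.690 ± 0.33, Hspa1a at 0.475 ± 0.20 and Fosb at 0.114 ± 0.060. Neighbours whose ranges over the libraries were apart were Ier2 over Dusp1, Junb over Fos, and Atf3 over Hspa1b. Dusp1 was above Junb in 4 of 7 libraries and Fos above Jun in 4 of 7, so neither order held beyond the spread. Ier2 had a higher mean TPM than 80.6% of tested genes, Fos than 36.7% and Hspa1a than 7.82%. Per length, Junb RNA was above both Fos and Jun RNA in these libraries.

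In 7 lists of related genes, 0 of 126 tested genes were called with edgeR, 16 had an unadjusted p under 0.05 (12.7%, where all tested genes gave 11.5%), DESeq2 called 4 and voom with sample weights 3. DESeq2 called 2.85% and voom 2.14% of all genes they tested. The 10 genes stand on these lists too. The list medians given next are small and depend on the setting. On log2(TPM + 1), where the median of all genes was 0.10, they were 0.09 for the AP-1 list, 0.19 for other immediate early transcription factors, 0.08 for other response genes, 0.18 for phosphatases and 0.19 for upstream factors. With voom that of the other transcription factors was -0.03 and that of the AP-1 list 0.01.

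Among AP-1 and related zipper factors, 0 of 13 tested were called, 3 had an unadjusted p under 0.05 (2 higher and 1 lower), and the median log2 fold change was -0.02. Batf2, an interferon-induced member, was at 1.49 ± 0.24 CPM in KO libraries and 1.01 ± 0.098 CPM in WT libraries (SD, n = 3 and 4; adjusted p = 0.369, edgeR). Fosl1 had too few reads to be tested.

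Among other immediate early transcription factors, 0 of 14 were called, 3 had an unadjusted p under 0.05 (2 higher and 1 lower) and the median was 0.09. Nr4a1, an orphan nuclear receptor that is needed for patrolling monocytes, was at 25.5, 14.7 and 21.9 CPM in KO and at 11.8, 10.03, 11.7 and 14.4 CPM in WT. Its groups did not overlap in CPM, as was so for 12.9% of all tested genes (log2 fold change 0.79 ± 0.19, SE; adjusted p = 0.150, edgeR). In TPM they overlapped, with KO library 2 at 6.35 and WT library 4 at 6.65. DESeq2 called Nr4a1 (adjusted p = 0.00795, with 0.00795 to 0.346 over the alternatives). Klf2, a factor of resting lymphocytes and endothelium, was at 47.0, 39.3 and 48.8 CPM in KO and at 59.0, 55.1, 63.8 and 61.4 CPM in WT. It also did not overlap in CPM, in the opposite direction (log2 fold change -0.41 ± 0.09, SE; adjusted p = 0.121, edgeR). In TPM its groups overlapped, with KO library 3 at 38.3 and WT library 1 at 35.7. Klf2 was called by DESeq2 (adjusted p = 0.00795) and voom with sample weights (adjusted p = 0.0265, with 0.00795 to 0.536 over the alternatives).

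Resting B cells also express Klf2, and the list of B lineage markers was lower in KO in the same libraries, at 143 to 236 summed CPM against 313 to 493 in WT. Its log2 fold changes were under 0 for 7 of 7, with 0 called by edgeR and no marker at 0. An unadjusted p under 0.05 was found for 6, where 11.5% of all tested genes had one. Endothelial markers went the other way, at 167 to 178 summed CPM in KO and 140 to 152 in WT, with 4 of 5 log2 fold changes above 0. T and NK cell markers overlapped, at 83.7 to 85.1 summed CPM in KO and 75.4 to 86.6 in WT, with 4 of 6 under 0. The part of these cell types in the Klf2 values was not tested.

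Among other immediate early response genes, 0 of 25 tested were called, 3 had an unadjusted p under 0.05 (2 higher and 1 lower) and the median was -0.04. Socs3, the feedback inhibitor of cytokine receptors that signal through STAT3, was at 16.5, 15.4 and 15.4 CPM in KO and at 12.5, 10.5, 12.0 and 11.7 CPM in WT. This was the smallest p of the lists (log2 fold change 0.44 ± 0.09, SE; adjusted p = 0.088, edgeR), and DESeq2 (adjusted p = 0.0139) and voom (adjusted p = 0.0302) called it, with 0.0139 to 0.263 over the alternatives. Ier3, a survival factor, was at 8.13 ± 1.41 CPM in KO libraries and 6.07 ± 0.50 CPM in WT libraries (SD, n = 3 and 4; adjusted p = 0.316, edgeR). Ptgs2 had too few reads to be tested.

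MAP kinase phosphatases and feedback genes gave 0 of 14 called, 2 with an unadjusted p under 0.05 (1 in each direction) and a median of 0.07. Dusp16, a phosphatase of JNK and p38, was at 14.4 ± 2.09 CPM in KO libraries and 11.3 ± 1.24 CPM in WT libraries (adjusted p = 0.361, edgeR), and Dusp2, the phosphatase of activated lymphocytes, at 7.86 ± 1.24 and 11.9 ± 3.42 CPM (adjusted p = 0.367, edgeR; SD, n = 3 and 4). Upstream kinases and transcription factors gave 0 of 23, 3 with an unadjusted p under 0.05 (1 higher and 2 lower) and a median of 0.05. Mrtfb, a coactivator of serum response factor, was at 9.84 ± 0.42 CPM in KO libraries and 12.4 ± 1.18 CPM in WT libraries (SD, n = 3 and 4; adjusted p = 0.247, edgeR). Elk4, a partner of the same factor, was at 48.1 ± 4.01 and 59.0 ± 7.72 CPM (SD, n = 3 and 4; adjusted p = 0.359, edgeR). Srf itself was at 51.7 and 47.1 CPM in KO and WT on average, and Hsf1 at 30.2 and 30.3 CPM.

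Of 29 heat shock proteins and co-chaperones 0 were called, 1 had an unadjusted p under 0.05 and the median log2 fold change was -0.07, with 23 values under 0 and 6 above. That split did not hold under every setting. Without KO library 1 it was 14 under 0 and 15 above, and on log2(TPM + 1), where the median of all genes also lay higher, it was 12 under 0 and 17 above (median 0.09 against 0.10 for all genes). Hspe1, the mitochondrial HSP10, was at 59.8, 61.2 and 68.0 CPM in KO and at 82.3, 77.4, 73.7 and 72.9 CPM in WT. It did not overlap between groups in CPM, as was so for 12.9% of all tested genes (log2 fold change -0.28 ± 0.08, SE; adjusted p = 0.193, edgeR). In TPM it overlapped, with KO library 3 at 139 and WT libraries 1 and 4 at 128 and 135. DESeq2 (adjusted p = 0.0326) and voom (adjusted p = 0.0413) called it, with 0.0326 to 0.592 over the alternatives. Dnajb1, the HSP40 partner of HSP70 and a target of HSF1, was at 98.5 ± 10.03 CPM in KO libraries and 111.8 ± 3.95 CPM in WT libraries (SD, n = 3 and 4; adjusted p = 0.448, edgeR). The constitutive chaperones Hspa8 and Hsp90ab1 had log2 fold changes of -0.01 and 0.02. The integrated stress response list gave 0 of 8 called, 1 with an unadjusted p under 0.05 and a median of 0.20, with 5 values above 0 and 3 under. Its median was 0.12 without KO library 1. By library, the median log2 deviation of this list from the WT mean was 0.25, 0.24 and -0.16 in KO libraries 1 to 3. In WT libraries 1 to 4 it was 0.04, -0.08, -0.08 and 0.19, so KO library 3 was lowest of all. The split was 8 above and 0 under on log2(TPM + 0.1) and log2(TPM + 1), where the median of all genes was 0.13 and 0.10. With voom it was 7 above and 1 under. Trib3, a pseudokinase induced by ATF4, was at 11.9, 6.44 and 1.49 CPM in KO libraries and 1.41 to 3.30 CPM in WT libraries (adjusted p = 0.361, edgeR). Chac1, a glutathione-degrading enzyme, was at 3.97 ± 0.31 and 3.08 ± 0.52 CPM (SD, n = 3 and 4; adjusted p = 0.481, edgeR).

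**Figure D5:**
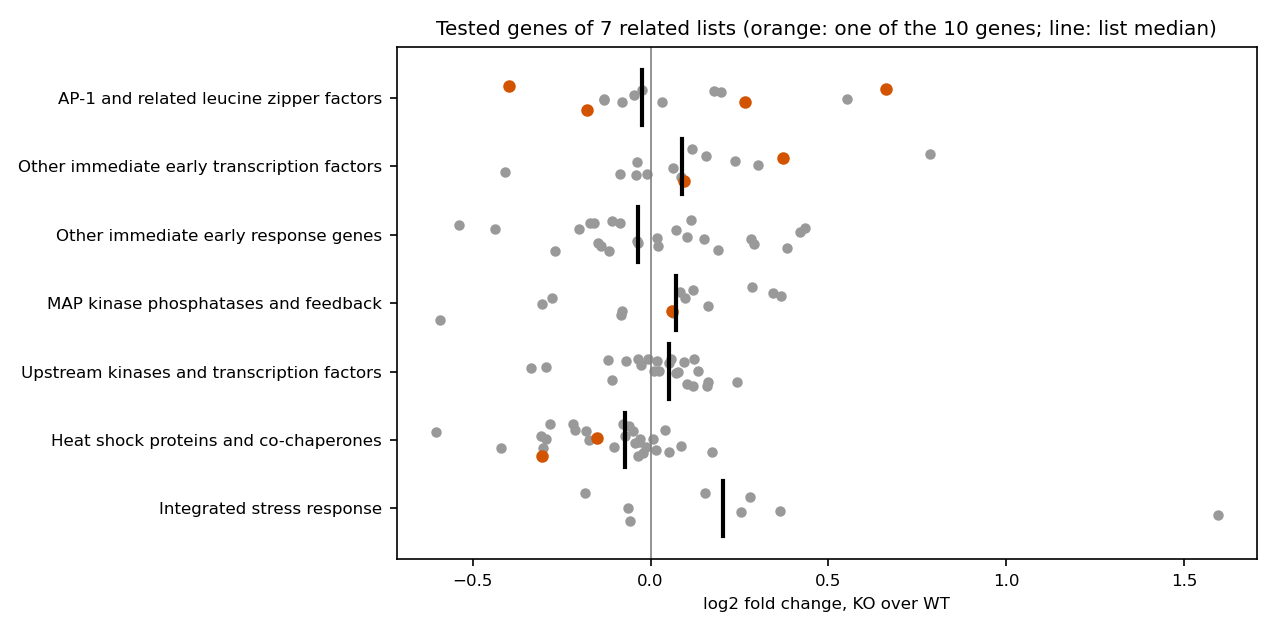
Log2 fold change of KO over WT (x axis) for every tested gene of 7 related lists (rows), with the 9 tested genes of this account in orange, other genes in grey and each list's median as a black line. List medians lie between -0.07 and 0.20, and the grey point farthest to the right is Trib3 (1.60).

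The genes whose levels over the 7 libraries were most like the mean of the 9 tested genes were Rab21, Slc41a1, Sept6, Szrd1 and Gpd1. Likeness was Pearson's r between log2(CPM + 0.5) and the mean of the standardised values, the highest among 10867 genes averaging 5 CPM or more, so the values of r, 0.974 to 0.983, are a description. Their log2 fold changes of KO over WT were 0.03 to 0.24. The mean itself was a loose summary, with r from -0.02 (Egr1) to 0.77 (Jun) for the single genes.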

How the data were processed

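RNA was measured in 7 bone marrow libraries, grouped by their titles as 3 KO and 4 WT. The submitters' processing notes name FastQC 0.11.9, Salmon 1.7.0, DESeq2 and build GRCm38.p6. The annotation release is not given in the sources used here. Per transcript, the authors deposited estimated counts, which need not be whole, and TPM values, per the file headers.

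Identifiers without version linked transcripts to GENCODE M21 genes, and 569 of 116546 had no gene and at most 0.0662% of the reads. Estimated counts were summed per gene, rounded, filtered with filterByExpr, scaled with TMM factors (0.918 to 1.06) and fitted with the quasi-likelihood test of edgeR (version 4.0.16 in R 4.3.3; limma 3.58.1 and DESeq2 1.42.0 as alternatives), with Benjamini-Hochberg adjustment over all 14238 genes and called at an adjusted p under 0.05. The steps were tested on simulated data with 14238 genes. Of 100 genes changed by a fold of 2, 71% were called, and of 99 changed by a fold of 4, 86.9%. Of the 165 calls, 4.85% were unchanged genes. Real changes can thus be missed, and smaller folds were not simulated. SE is the absolute log2 fold change over the square root of F.

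The 10 genes and all lists were chosen with earlier results of these data known. Named genes were the 10, Aim2, up to 4 called genes per list or else the 2 of smallest p, and the 5 most alike; others were named after their values were seen. Depth differed little between libraries, and of the tested genes both Hspa1 copies, at 10.4 to 56.8 reads per library, had the largest standard errors. No 2 libraries of a group agreed within sampling noise (chi-square per degree of freedom 9.61 to 59.4).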

Additional observations from a re-analysis of the deposited data

Results flagged for a closer look

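Fos in WT library 1 was at 4.24 CPM, far from the other 3 WT libraries at 8.14 to 8.63 CPM, by Dixon's criterion for 4 samples (ratio 0.888). Ier2 in WT library 3 was at 49.9 CPM, above the other WT libraries at 42.7 to 43.7 CPM (ratio 0.865). The criterion was applied to the WT group of each of the 10 genes, and chance flags about 1 in 20 groups. WT library 1 also had the highest share of haemoglobin reads (19.9%), and whether that bears on its Fos value was not tested.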

How the results depend on the processing

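In all 17 alternatives 0 of the tested genes of the set were called. Of 152 log2 fold changes recomputed for the 9 genes, 148 kept their direction and call and 4 changed sign, Dusp1 without WT library 1 (-0.047), Hspa1a without KO library 1 (0.18) or WT library 4 (0.01), and Hspa1b without KO library 1 (0.12). Leaving out 1 library gave -0.70 to 0.18 for Hspa1a, -0.91 to 0.12 for Hspa1b and -0.047 to 0.18 for Dusp1. The adjusted p of Fos ranged from 0.136 (DESeq2) to 0.557 (without KO library 2) and its log2 fold change from 0.46 to 0.85. The count of called genes over all genes, 92, was 405 with DESeq2, 305 with voom and sample weights, 49 and 50 on log2(TPM + 0.1) and log2(TPM + 1), and 17 to 65 with 1 library left out (42 without KO library 1, 22 without KO library 2, 17 without WT library 2, 24 without WT library 3 and 51 without WT library 4). In the related lists DESeq2 called 2 higher (Nr4a1, Socs3) and 2 lower (Klf2, Hspe1), voom 1 higher and 2 lower, and with 1 library left out 0 to 1 lower were called, against 0 in either direction. On the TPM scales the overall median moved from -0.01 to 0.13 and 0.10, and 43 of 49 and 45 of 50 called genes were higher, against 68 of 92. With the sample number as a replicate block over 6 libraries 21 genes were called, none of them in the set, where Fos had a log2 fold change of 0.77. Same-numbered libraries did not deviate together (r = 0.106, -0.028 and -0.267), and KO library 1 correlated best with WT library 3 (0.255), so the numbers were not taken as pairs. Depth limits Fosb, Hspa1a and Hspa1b most.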
